A study of Mus musculus with 6 samples.

Results

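The comparison described here sets splenic macrophages against CD8- conventional dendritic cells (cDC), the cDC that lack the CD8 co-receptor chain. Its members are 4 arrays of the 6 in the series, the 2 titled macrophages and the 2 titled CD8- cDC, and every gene of the authors' value table, 19057 in all, with 1 probe standing for each gene. The remaining 2 arrays were CD8+ cDC and entered only the estimate of the spread, the choice of probe for each gene and the level taken as background. All cells came from the spleen of C57/B6 mice, no treatment is recorded for any group, and total RNA was labelled and read on Illumina mouse bead arrays. How the cells were isolated, the age and sex of the mice and whether replicates were separate animals or sorts were not stated in those labels. The p-values therefore measure only the spread between these samples, which may be technical, and every group mean rests on n = 2.

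Most macrophages of the spleen live in the red pulp, where they take up aged red blood cells, break down haem and return iron to the circulation, and smaller populations line the marginal zone around the white pulp and take up microbes from the blood. Conventional dendritic cells instead carry antigen to T cells and present it on MHC molecules. The CD8- population, also called cDC2 and recognised by the receptor Clec4a4 (DCIR2), depends on Irf4, Relb and Notch signals and presents mainly to CD4 T cells. The 2 populations share many myeloid genes, among them surface markers used to sort either of them.

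Values below are log2 signals. A difference is macrophages minus CD8- cDC in log2 units, so that a positive one is higher in macrophages, and SE is its standard error. A gene was called when its limma p-value, after Benjamini-Hochberg adjustment across the 45281 probes, was under 0.05. A gene was said to be at background at or under 5.25 log2, the 99th percentile of 1597 probes of gene families silent in blood cells, namely keratin-associated proteins and the receptors of smell, taste and the vomeronasal organ. Where a called gene had an array of the dimmer group at background, its fold is a lower limit, computed by placing that array at the background level. Between 15802 and 15827 probes per array lay above it, and the highest signal was 14.53 on each of the 4 arrays, so genes near that value could differ by more than the scale shows.

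Replicates correlated at 0.966 in macrophages and 0.976 in CD8- cDC (Pearson, over 19131 probes), but in each group 1 array held more of the other population's genes. Red pulp macrophage markers had list medians of 12.40 and 12.71 on the macrophage arrays, against 7.40 and 5.40 in CD8- cDC, where replicate 1 stood above replicate 2 for 20 of 24. Macrophage replicate 1 stood above replicate 2 for 27 of 30 core cDC genes, with list medians of 7.84 and 6.47, against 10.19 and 10.18 in CD8- cDC. Macrophage replicate 1 also held more of the markers of T cells (9 of 11, medians 6.51 and 4.62), neutrophils (11 of 13, medians 6.68 and 4.72) and monocytes (8 of 10, medians 6.02 and 4.90) than macrophage replicate 2. CD8- cDC replicate 1 likewise stood above replicate 2 for 10 of 11 T cell, 10 of 13 neutrophil and 8 of 10 monocyte markers. The CD8- cDC medians lay closer, at 5.52 and 4.94 for T cells, 4.81 and 4.62 for neutrophils and 4.90 and 4.71 for monocytes. Immediate early and stress genes were higher on macrophage replicate 1 too, for 28 of 30. What these shifts contributed to the results was not tested. In bulk samples fewer cells of a type and less RNA per cell cannot be told apart.

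**Figure D1:**
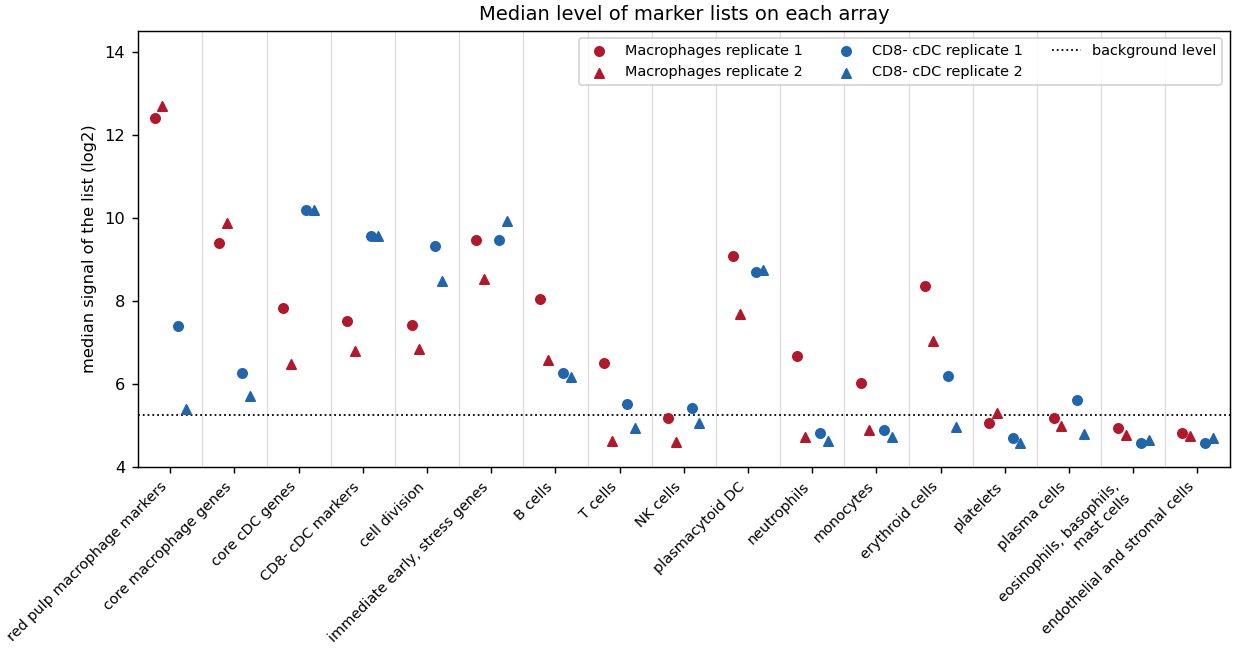
Median log2 signal of each marker list on the 2 macrophage arrays (red, left in each column) and the 2 CD8- cDC arrays (blue, right), with circles for replicate 1 and triangles for replicate 2. The red pulp list sits at 12.40 and 12.71 in macrophages against 7.40 and 5.40 in CD8- cDC, and the neutrophil list at 6.68 on macrophage replicate 1 only, the other 3 arrays being under the dotted background level of 5.25.

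Of 19057 genes, 2492 (13.1%) were called, 1361 (7.14%) higher and 1131 (5.93%) lower in macrophages than in CD8- cDC. Every count of called list members below has to be read against these shares. The lists were chosen with earlier results of these data known, so their counts describe the populations and test nothing. The median difference of all genes was 0.00 and the median size of a called difference 1.53. Large differences lay mostly on the macrophage side, with 124 genes at least 16-fold higher and 18 at least 16-fold lower by the fitted difference. Among the higher genes, 346 were at background on both CD8- cDC arrays, and among the lower genes 181 were at background on both macrophage arrays. The groups did not overlap for 9914 genes (52%), a share that any list has to be read against. Of all genes, 3723 (19.5%) were above background on all 4 arrays with the 95% interval of the difference inside -1 to 1, which is called within 2-fold below. They made up 49.0% of the 7592 genes above background on all 4 arrays.

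When 1 array was left out, its group held a single array that was assumed to vary like the others, and fewer genes passed. Without macrophage replicate 1, macrophage replicate 2, CD8- cDC replicate 1 and CD8- cDC replicate 2, the higher genes numbered 1197, 763, 563 and 484 and the lower genes 940, 511, 335 and 237. Counts with an array left out are given in this order below. Of 263 called genes named here, 56, 111, 141 and 162 were no longer called.

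**Figure D2:**
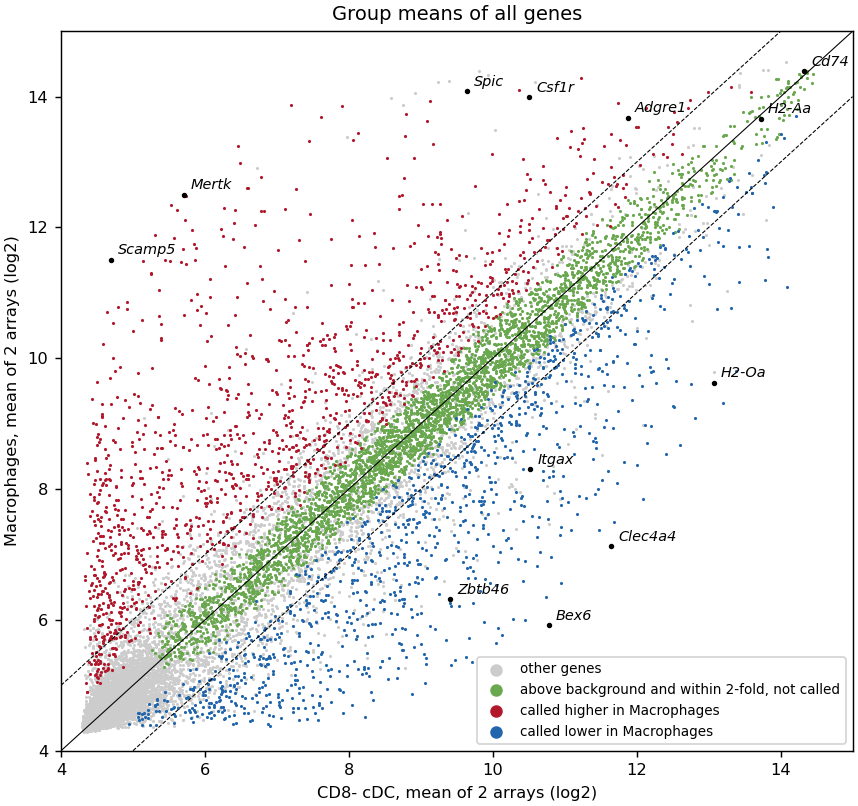
Mean log2 signal of each of 19057 genes in macrophages (vertical axis) against CD8- cDC (horizontal axis), with 1361 genes called higher in red, 1131 called lower in blue and genes within 2-fold that were not called in green; the dashed lines mark a difference of 1 log2. Mertk and Scamp5 lie high above the diagonal, Bex6 and Clec4a4 far below it, and H2-Aa and Cd74 on it near the top of the scale.

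The 4 genes used as markers of these cells are described by value. They were chosen with earlier results of these data known, so their separation does not test the labels. Mertk, a receptor tyrosine kinase for apoptotic cells, had 12.46 and 12.54 in macrophages, against 6.88 and 4.53 in CD8- cDC, and was at least 86.4-fold higher (adjusted p = 0.0272). Scamp5, a membrane protein of secretory vesicles, had 11.38 and 11.64 in macrophages, against 5.03 and 4.35 in CD8- cDC, both at background, and was at least 76.5-fold higher (adjusted p = 0.00646). Clec4a4, the lectin receptor of CD8- cDC, had 7.21 and 7.05 in macrophages, against 11.64 and 11.65 in CD8- cDC, a difference of -4.51 (22.9-fold, adjusted p = 0.0149). Bex6, of the brain-expressed X-linked family, had 6.19 and 5.64 in macrophages, against 10.64 and 10.91 in CD8- cDC, the largest fall among called genes at -4.86 (SE 0.30, adjusted p = 0.003). In all 4 genes the groups were far apart, and the only wide gap between replicates was that of Mertk in CD8- cDC, where replicate 1 was above background and replicate 2 was not. The call was lost for 2, 2, 2 and 3 of the 4 called genes just named with 1 array left out.

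Besides Mertk and Scamp5, the 14 highest genes held several carriers of organic solutes: the glutamate transporter Slc1a3 (at least 89.7-fold), the organic anion carriers Slco2b1 (at least 93.6-fold) and Abcc3 (at least 88.9-fold), and the solute carrier Slc45a3 (at least 72.9-fold). The mannose receptor Mrc1 was above background on all 4 arrays, with 13.72 and 14.04 in macrophages against 8.56 and 5.84 in CD8- cDC, and differed by 6.68 (103-fold, SE 1.17, adjusted p = 0.0338). The prostacyclin synthase Ptgis was at least 72.4-fold higher, the terminal complement component C6 at least 77.5-fold and the haemoglobin receptor Cd163 at least 84.3-fold. Paqr9 (at least 65.9-fold), the procollagen processing enhancer Pcolce2 (at least 60.2-fold), the lipid phosphatase Plpp3 (at least 59.1-fold) and the integrin chain Itgad (67.8-fold) completed them. All of these except Scamp5 were above background on CD8- cDC replicate 1, and on replicate 2 only Mrc1 and Itgad were.

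Bex6 and Clec4a4 led the 14 lowest genes. Of the others, Pglyrp1, which binds bacterial peptidoglycan, was at least 20.5-fold lower in macrophages, the leukocyte receptor Cd7 at least 19.7-fold and the lectin-like receptor Klri1 20.9-fold. Ryr3, a calcium release channel of the endoplasmic reticulum, was at least 19.3-fold lower, with 5.64 and 5.06 in macrophages against 9.46 and 9.97 in CD8- cDC. The GABA carriers Slc6a13 (20.5-fold) and Slc6a12 (18.4-fold) fell together, as did Ppp1r14a (20.9-fold), an inhibitor of myosin phosphatase. The succinate receptor Sucnr1 was 18.4-fold lower, the adaptor Stap1 19.2-fold, the ubiquitin-conjugating enzyme Ube2e2 18.8-fold, the organelle transport regulator Mreg 18.2-fold and the FERM domain gene Frmd5 at least 16.5-fold. In CD8- cDC the replicates of each of these genes lay less than 1 unit apart. In those fits 10, 16, 15 and 19 of 28 called genes named above lost the call.

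**Figure D3:**
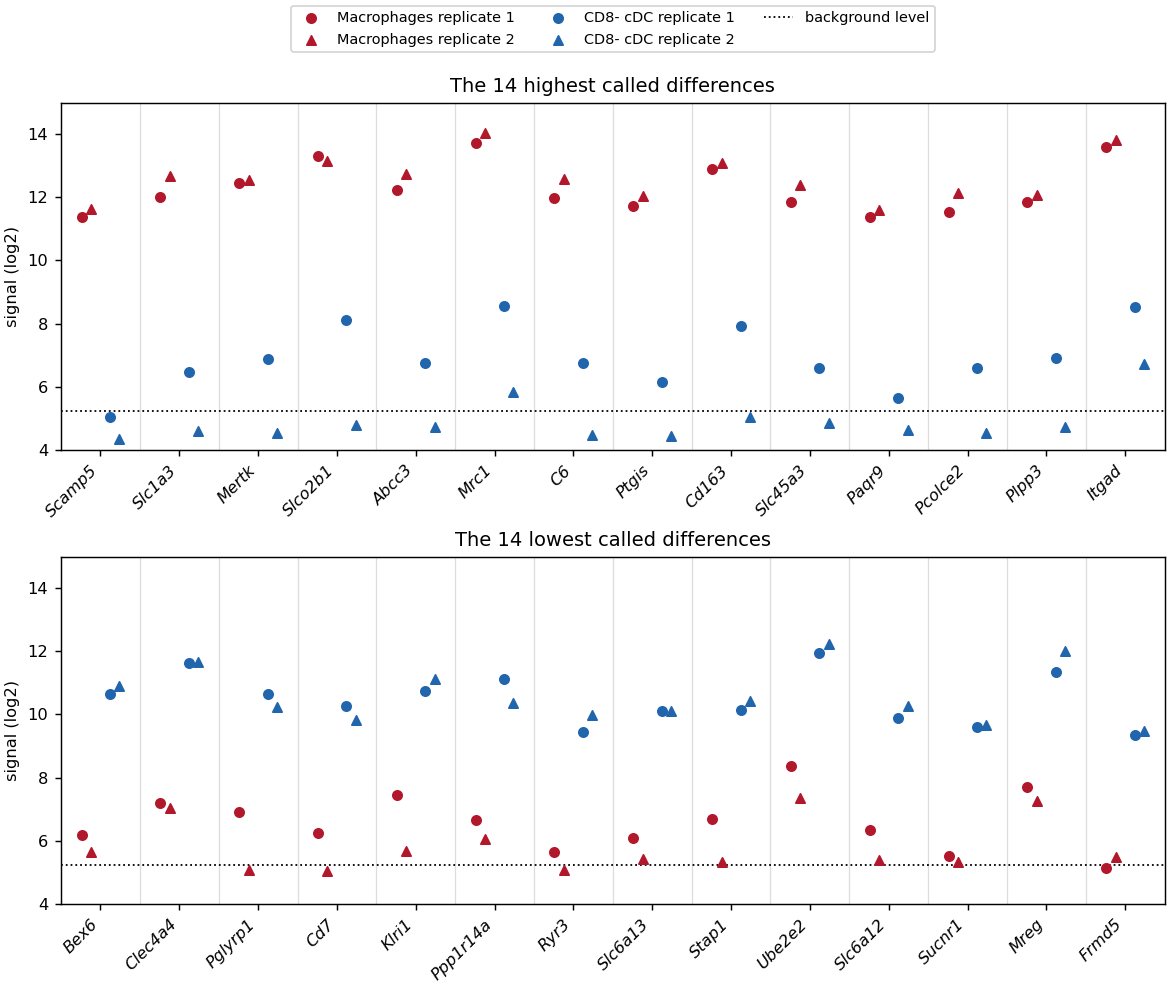
Log2 signals on the 2 macrophage arrays (red, left) and the 2 CD8- cDC arrays (blue, right) for the 14 called genes with the highest and the 14 with the lowest difference. Mrc1 shows 13.72 and 14.04 in macrophages against 8.56 and 5.84 in CD8- cDC; in the upper panel CD8- cDC replicate 1 (circles) lies above replicate 2 (triangles) for every gene shown.

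Of 20 measured macrophage transcription factors 7 were higher, 0 lower and 13 not called, with a median of 0.91 (0.48 with signals at background set to that level). Spic, which red pulp macrophages require, had 14.03 and 14.14 in macrophages, against 10.14 and 9.13 in CD8- cDC, so it was well above background in both (4.45, adjusted p = 0.0217). The nuclear receptor Pparg was at least 56.0-fold higher, with 11.12 and 11.50 in macrophages against 5.75 and 4.76 in CD8- cDC. Cebpb rose by 3.07, the lysosomal regulator family member Tfec at least 7.78-fold and the retinoid X receptor Rxra at least 3.62-fold. Nr1h3 (LXR alpha), a sterol sensor, was at 13.22 and 13.53 in macrophages and at 8.64 and 7.31 in CD8- cDC but was not called (5.40, adjusted p = 0.062).

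Of 22 dendritic cell factors 9 were lower, 1 higher and 12 not called, with a median of -0.89. Zbtb46, the factor that marks the cDC lineage, had 6.17 and 6.47 in macrophages, against 9.33 and 9.48 in CD8- cDC (-3.09, adjusted p = 0.00188). Irf4 had 7.76 and 6.94 in macrophages, against 9.61 and 9.69 in CD8- cDC (-2.30, adjusted p = 0.0127). Relb, which this cDC population needs, fell by 2.52 (adjusted p = 0.00625). Bcl11a (-3.11, adjusted p = 0.0499) and Mycl (-2.81, adjusted p = 0.0469) fell as well, with macrophage arrays over 1 unit apart. The only called factor in the other direction was Zeb2, 1.71 higher in macrophages. Tcf4 (0.06), Irf2 (-0.13) and Ikzf1 (-0.29) were within 2-fold, whereas Irf8 (1.40, adjusted p = 0.0616) and Batf3 (-0.85, adjusted p = 0.0762) were neither called nor within 2-fold. With arrays left out in the order above, 8, 5, 3 and 2 macrophage factors were higher, and 8, 6, 3 and 2 dendritic cell factors lower. Of 11 called genes named here, 1, 3, 5 and 7 lost the call with 1 array left out.

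Red pulp macrophage markers rose in 15 of 24 measured members and fell in none, with a median of 5.55, the highest of the lists. Hmox1, the enzyme that opens the haem ring, had 13.83 and 13.88 in macrophages, against 9.25 and 6.55 in CD8- cDC (5.95, adjusted p = 0.0249). The hyaluronan receptor Stab2 was 5.70 higher, the immunoglobulin domain gene Vstm4 5.81, Treml4 3.08, the erythropoietin receptor Epor at least 8.23-fold and the high-affinity IgG receptor Fcgr1 at least 17.8-fold. Vcam1, an adhesion molecule of these cells, had 14.34 and 14.32 in macrophages, against 11.12 and 8.74 in CD8- cDC, and just missed the call (4.40, adjusted p = 0.0536). The receptor Axl (4.59, adjusted p = 0.102) and Slc40a1, which exports iron (3.63, adjusted p = 0.199) were not called either, and in all 3 the CD8- cDC arrays lay over 2 units apart. Cd5l was at background on all 4 arrays. With 1 array left out the count of higher members was 7, 6, 10 and 6, and the median reached 6.36 when CD8- cDC replicate 1 was absent and 4.65 when replicate 2 was.

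Core macrophage genes, expressed by macrophages of many tissues, were higher in 23 of 24 members and lower in none (median 3.14). The median lay between 2.98 and 3.18 with 1 array left out and the count of higher members 18, 16, 17 and 15. Cd14, the lipopolysaccharide co-receptor, differed by 5.75 and the phospholipase Pla2g15 by 4.80. Tlr4 had 10.66 and 10.72 in macrophages, against 6.25 and 5.79 in CD8- cDC (4.67, adjusted p = 0.00429). Myo7a, an unconventional myosin, was at least 16.2-fold higher, and the plasma selenium carrier Selenop differed by 4.11. Csf1r, the receptor for macrophage colony-stimulating factor, was well above background in both, with 13.90 and 14.08 in macrophages and 10.53 and 10.46 in CD8- cDC (3.49, adjusted p = 0.038), and lost its call without each of the 4 arrays.

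Marginal zone macrophage markers were higher in 3 of 7 members (median 3.86, or 2.99 with background set), and in 2, 2, 3 and 2 with an array left out. These were the scavenger receptor Marco (4.58), the phosphatidylserine receptor Timd4 (at least 26.8-fold) and the sialic acid receptor Siglec1 (at least 7.92-fold). The lectin Cd209e was at least 2.11-fold lower, and its relative Cd209b had 6.67 and 7.61 in macrophages and 6.66 and 7.07 in CD8- cDC (0.27, adjusted p = 0.808). The call was lost for 5, 6, 2 and 6 of the 16 called genes just named with 1 array left out.

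Haem and iron handling had 9 of 29 members higher and 1 lower (median 0.56, or 0.40 with background set). Among the higher ones were the haemopexin receptor Lrp1 (3.74), the haem exporter of the phagosome Slc48a1 (3.21), the biliverdin reductases Blvrb (4.53) and Blvra (2.22), and the phagosomal metal carrier Slc11a1 (3.06). Transferrin, Trf, had 14.06 and 14.16 in macrophages, against 10.61 and 10.12 in CD8- cDC (3.74, adjusted p = 0.00355). The transferrin receptor Tfrc went the other way, with 9.94 and 9.59 in macrophages against 11.05 and 11.40 in CD8- cDC (-1.46, adjusted p = 0.0124). The iron exporter Slc40a1 was not called (3.63, adjusted p = 0.199). The ferritin chains Fth1 (0.04) and Ftl1 (0.33) were within 2-fold, both at 13.85 or above on every array and so near the top of the scale. Higher members numbered 7, 7, 7 and 6 with 1 array left out.

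Genes for the uptake of apoptotic cells were higher in 8 of 27 members and lower in 2 (median 0.46, or 0.10 with background set). Besides Mertk, Timd4, Stab2 and Lrp1, these were the bridging proteins Gas6 (at least 6.97-fold) and Pros1 (1.47), the integrin chain Itgb5 (5.66) and the scramblase Xkr8 (at least 3.65-fold). Havcr2 (TIM-3), which also binds phosphatidylserine, was lower (-1.63), and the engulfment adaptor Elmo1 fell by 0.86. The bridging protein Mfge8 was not called (-1.25, adjusted p = 0.109). Without an array 6, 3, 4 and 2 members were higher. Of 23 complement genes 6 were higher and 1 lower (median 0.51, or 0.36 with background set). They comprised C2 (6.03), factor B, Cfb (3.22), C4b (at least 3.42-fold), C6, the membrane regulator Cd59a (at least 8.79-fold) and the C3 fragment receptor Vsig4 (at least 8.87-fold). The C1q chains showed the same large gap in C1qa (6.18, adjusted p = 0.0528), C1qc (5.39, adjusted p = 0.0835) and C1qb (5.14, adjusted p = 0.121) without a call. C1qb had 14.01 and 14.10 in macrophages, against 10.08 and 7.75 in CD8- cDC, so its CD8- cDC arrays were over 2 units apart. The lower gene was Itgam, at 4.55 and 4.62 in macrophages and 5.54 and 5.90 in CD8- cDC, a probe near background that says little about this receptor chain. Of the complement genes 4, 2, 1 and 0 were higher with 1 array left out, and 11 with a variance trend.

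Among Fc receptors 4 of 13 were higher and 0 lower (median 0.25, or 0.01 with background set): Fcgr1, the activating receptor Fcgr3 (5.42), the low-affinity IgE receptor Fcer2a (2.18) and the neonatal receptor Fcgrt (2.15). The inhibitory receptor Fcgr2b went without a call, at 8.58 and 6.75 in macrophages and 8.90 and 8.98 in CD8- cDC (-1.27, adjusted p = 0.379). Scavenger receptors were higher in 8 of 19 (median 0.65, or 0.21 with background set), among them Scarb2 (2.30), Scarb1 (at least 3.41-fold) and Scarf2 (at least 4.21-fold), while the membrane chemokine Cxcl16 fell by 1.68. In the same fits 3 Fc receptors were higher in each fit, and 7, 6, 6 and 5 scavenger receptors. In those fits 10, 14, 11 and 16 of 31 called genes named above lost the call.

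Lysosomal enzymes were higher in macrophages for 8 of 22 proteases and their inhibitors (median 0.40, or 0.16 with background set) and for 14 of 29 glycan and lipid hydrolases (median 1.05). Lgmn, the asparaginyl endopeptidase, had 13.05 and 13.18 in macrophages, against 10 and 9.99 in CD8- cDC (3.12, adjusted p = 0.00154). Cathepsin Ctsc was 2.39 higher, Ctsd 2.03, Ctsb 0.84 and Ctsf at least 7.02-fold, and Tpp1, a tripeptidyl peptidase, 2.78. Cathepsins Ctsh (-0.05) and Ctsz (0.32) were within 2-fold and Ctss, which trims the class II invariant chain, was not called (0.48, adjusted p = 0.658). Ifi30, the lysosomal thiol reductase that unfolds antigens, was the called exception, lower in macrophages (-0.87, adjusted p = 0.00965). Among hydrolases the acid phosphatase Acp2 (2.85), the lipase Lipa (2.33), the galactosylceramidase Galc (at least 2.41-fold), the sialidase Neu1 (2.09) and the hexosaminidase Hexa (1.99) were higher, and Acp2 had probes called in opposite directions, while Psap (0.30), Gusb (0.33) and Ids (0.24) were within 2-fold. In the fits with an array left out 5, 6, 5 and 5 proteases and 9, 4, 6 and 5 hydrolases were higher. With only the 4 arrays compared, 5 proteases were higher. Of 12 called genes named here, 3, 6, 6 and 5 lost the call with 1 array left out.

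The 7 letters TCACGTG, on either strand, lie at the core of the sequence bound by TFEB and its relatives, known regulators of lysosomal genes. In RefSeq promoters of GRCm38.p6, from 250 bases before to 50 after the start, they occurred for 7 of 19 called higher lysosomal genes (36.8%), 4 of 23 lysosomal genes not called higher (17.4%) and 823 of 15237 measured genes (5.40%). Stretches of 3 of the 7, picked from enzymes whose values are given here, are shown with the motif in capitals. Ctsd, whose value is given above, was also among the 7 and is not shown. A match is a description, not a site or a cause. Lgmn has 2 starts in the table, and the stretch shown belongs to the start that holds the motif.
Lgmn, chr12:102439111-102439167, minus strand: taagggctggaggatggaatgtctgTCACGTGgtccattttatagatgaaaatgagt
Glb1, chr9:114401004-114401060, plus strand: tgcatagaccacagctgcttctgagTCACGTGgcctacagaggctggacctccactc
Naglu, chr11:101069995-101070051, plus strand: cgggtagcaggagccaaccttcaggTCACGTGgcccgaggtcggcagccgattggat
Glb1, the lysosomal beta-galactosidase, was 1.44 higher in macrophages and Naglu, which degrades heparan sulfate, 1.36 higher.

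Genes of lipid handling were higher in 9 of 25 members and lower in 1 (median 0.70). Lipoprotein lipase, Lpl, had 12.22 and 11.86 in macrophages, against 7.32 and 6.06 in CD8- cDC (5.35, adjusted p = 0.036). The apolipoproteins Apoe (3.99), Apoc1 (at least 51.9-fold) and Apoc2 (at least 2.79-fold) and the cholesterol exporters Abcg1 (3.13) and Abca1 (at least 1.95-fold) rose with it. Srebf2, the activator of sterol synthesis, was lower (-1.14, adjusted p = 0.0415), and its target Sqle was not called (-0.78, adjusted p = 0.0613). Without an array 8, 6, 6 and 5 members were higher and none lower. In prostanoid and leukotriene metabolism 6 of 24 members were higher, 3 lower and 15 not called. The higher members were the prostanoid synthases Ptgis, the thromboxane synthase Tbxas1 (4.50) and the prostaglandin D synthase Hpgds (2.95), with the degrading enzyme Hpgd (3.76), the lipoprotein-associated phospholipase Pla2g7 (3.44) and the prostaglandin E2 receptor Ptger2 (at least 4.90-fold). Other prostanoid synthases of the list were not called: Ptges2 (0.03) and Ptges3 (0.29) were within 2-fold, Ptges and Ptgds were at background on all 4 arrays, and the cyclooxygenase Ptgs2 was not called at signals near background (-0.25, adjusted p = 0.903). The lower members included Alox5ap, which leukotriene synthesis requires, with 11.74 and 11.70 in macrophages against 13.21 and 13.17 in CD8- cDC (-1.47, adjusted p = 0.00245). The leukotriene B4 receptor Ltb4r1 (at least 5.05-fold) and a second prostaglandin E2 receptor, Ptger3 (at least 7.89-fold), were lower too. Higher members of this list numbered 5, 3, 2 and 2 with 1 array left out, and lower ones 3, 2, 2 and 2. The call was lost for 3, 8, 9 and 9 of the 19 called genes just named with 1 array left out.

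Among innate sensors, Toll-like receptors and adaptors were higher in 9 of 25 members and lower in none (median 0.26). Besides Tlr4 and Cd14 these included the Tlr4 partner Ly96 (2.86), the inhibitory kinase Irak3 (3.19), Tlr7 (1.56), Tlr2 (1.42) and Tlr8 (at least 4.08-fold). Myd88 (-0.38), Irak1 (-0.38), Tlr6 (-0.07) and Tlr13 (0.27) were within 2-fold, and Tlr5 was at 5.94 and 6.30 in macrophages and at 7.93 and 8.62 in CD8- cDC without a call (-2.15, adjusted p = 0.056). With 1 array left out 6, 6, 5 and 6 members were higher. Among interleukins and their receptors 6 of 25 were higher and 2 lower (median 0.22, or 0.00 with background set). Il1a had 9.04 and 8.99 in macrophages, against 4.45 and 4.44 in CD8- cDC, both at background (at least 13.6-fold, adjusted p = 0.00242), while Il1b was at 10.72 or above on all 4 arrays and not called (-0.96, adjusted p = 0.257). Il18 was 3.34 higher with its inhibitor Il18bp at least 4.76-fold higher, Il15 was 2.29 higher and Il10 at least 1.47-fold higher. The decoy receptor Il1r2 was at least 5.67-fold lower and Il17ra fell by 1.80. The counts without an array were 5, 5, 3 and 3 higher and 2, 0, 0 and 0 lower.

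Chemokines were higher for 6 of 24 and lower for 2, against 7.14% and 5.93% of all genes. The lower chemokines, and the higher chemokine receptors given below, were near those shares. Ccl24, which attracts eosinophils, was at least 18.5-fold higher, the interferon-induced ligands Cxcl9 and Cxcl10 were 1.73 and 2.49 higher, and Cxcl12 was at least 3.59-fold higher. Ccl5 had 10.04 and 8.61 in macrophages, against 13.03 and 13.38 in CD8- cDC (-3.88, adjusted p = 0.0154). Of 18 chemokine receptors only Ccr3 was higher, at 10.60 and 10.46 in macrophages and 4.68 and 4.77 in CD8- cDC (at least 38.8-fold, adjusted p = 0.00168). Of the list of eosinophil, basophil and mast cell markers, which holds Ccr3, the eosinophil granule gene Prg3 was also higher (at least 2.62-fold), Prg2 was not called (-0.92, adjusted p = 0.399), and Epx and Siglecf were at background on all 4 arrays. Ccr7, which guides dendritic cells to lymphatic tissue, fell by 2.78, the oxysterol receptor Gpr183 was lower (-3.78), Ccr6 was at least 10.4-fold lower and the atypical receptor Ackr1 at least 8.73-fold. Higher chemokines numbered 7, 3, 3 and 3 and lower receptors 3, 1, 0 and 0 with 1 array left out. The 4 arrays alone gave 2 lower receptors. In those fits 6, 12, 15 and 14 of 25 called genes named above lost the call.

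Core cDC genes, known from dendritic cells of several tissues, fell in 24 of 30 members and rose in none (median -2.66). Kit, the receptor for stem cell factor, had 9.62 and 8.54 in macrophages, against 12.52 and 13.09 in CD8- cDC (-3.73, adjusted p = 0.0107). The SLAM family receptor Slamf7 (-3.84), the signalling adaptor Traf1 (-3.64), the adhesion receptor Jaml (-3.45), the chromatin protein Hmgn3 (-3.37) and the aspartic protease Napsa (-2.54) fell. Itgax (CD11c), used to sort cDC, had 8.74 and 7.88 in macrophages, against 10.62 and 10.42 in CD8- cDC (-2.21, adjusted p = 0.0183). The cytokine receptor Flt3 was near background on all 4 arrays (-0.45, adjusted p = 0.775). In most members macrophage replicate 1 was the higher macrophage array, and the median was -3.02 without it and -2.13 without macrophage replicate 2. The number of lower members was 23, 18, 5 and 2 with 1 array left out, so few calls held with a single CD8- cDC array. With only the 4 arrays compared, 13 members were lower.

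Of the kynurenine pathway, which degrades tryptophan, 3 enzymes were lower in macrophages. Kmo (-2.77), Kynu (-3.30) and Haao (-3.83) fell, with Haao at 7.66 and 5.54 in macrophages against 10.40 and 10.45 in CD8- cDC. The first enzymes of the path, Ido1 (-0.37) and Ido2 (0.19), were at background on all 4 arrays. In the list of retinoid and vitamin metabolism, which holds these 3, 3 of 26 members were higher and 4 lower (median 0.17, or 0.00 with background set), with 4, 4, 2 and 2 higher and 4, 3, 0 and 0 lower when an array was left out. With only the 4 arrays compared, 2 were lower. The aldehyde dehydrogenases Aldh3b1 (3.56) and Aldh2 (1.78) were higher in macrophages, while Aldh1a2 (0.18), which makes retinoic acid, was not called at signals near background. Of 12 called genes named here, 0, 0, 9 and 10 lost the call with 1 array left out.

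CD8- cDC markers fell in 15 of 30 members and rose in 3 (median -1.23). Besides Clec4a4, Bex6 and Cd7, the lymphotoxin chain Ltb (-3.64), the ubiquitin ligase Dtx1 (-3.61), S100a4 (-3.43) and the lectin Cd209a (-2.87) fell, and the T-box factor Tbx21 was at least 5.32-fold lower. Cd4 had 6.15 and 6.66 in macrophages, against 7.80 and 8.31 in CD8- cDC (-1.65, adjusted p = 0.029). Esam, an adhesion molecule of the Notch-dependent cells, was high in both, at 10.35 and 10.62 in macrophages and 11.42 and 11.73 in CD8- cDC, and was not called (-1.09, adjusted p = 0.0871). The 3 higher members, Csf1r, Tlr7 and the cyclin Ccnd2 (1.55), are also known from macrophages. Sirpa, the usual sorting marker of CD8- cDC, had 14.07 and 14.30 in macrophages and 13.21 and 13.63 in CD8- cDC (0.77, adjusted p = 0.414). With 1 array left out 11, 9, 4 and 3 members were lower. Markers of CD8+ cDC were called higher for 2 of 22, the adhesion molecule Cadm1 (4.07) and Fgd6 (1.95), with 0 lower, near the 7.14% of all genes called higher. Their median of -0.03 lay between -0.34 and 0.35 with an array left out, when 2, 1, 1 and 1 were higher and 2, 2, 0 and 0 lower. Xcr1 (0.14) and Clec9a (-0.02) were not called, and Cd8a was at background.

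Of 25 Notch pathway genes 5 were higher and 3 lower (median 0.10, or 0.00 with background set). The coactivator Maml2 (2.19), the targets Hes1 (1.32) and Hey1 (at least 2.36-fold), Dtx4 (2.51) and the inhibitor Numb (0.62) were higher. The target Dtx1, the glycosyltransferase Mfng (-1.09) and the ligand Jag1 (at least 2.85-fold) were lower. With the mean over all its probes in place of 1 probe, the difference of Numb was -0.14. The receptor Notch2 was at background on all 4 arrays and Notch1 was not called (1.38, adjusted p = 0.0861). Without an array 5, 2, 1 and 2 members were higher and 4, 1, 0 and 0 lower. The call was lost for 4, 11, 16 and 15 of the 21 called genes just named with 1 array left out.

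NF-kB and TNF family genes fell in 6 of 25 members and rose in none (median -0.71, or -0.66 with background set). The lower genes were the kinase Map3k14 (NIK, -1.23), the NF-kB subunits Relb and Rel (-1.95), the adaptors Traf1 and Traf2 (-1.34) and Ltb. Rela, another subunit, was within 2-fold (-0.31), and Nfkb2, the partner of Relb, was not called (-0.66, adjusted p = 0.187), nor were Birc3 (-1.07, adjusted p = 0.071) and the lymphotoxin receptor Ltbr (1.37, adjusted p = 0.184). With a variance trend 10 members were lower. Tnf had 7.86 and 7.35 in macrophages, against 9.31 and 10.53 in CD8- cDC, and narrowly missed the call (-2.31, adjusted p = 0.0503). The lower genes numbered 4, 4, 6 and 0 with 1 array left out, the last being without CD8- cDC replicate 2.

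Costimulation and maturation genes were lower in 8 of 24 members and higher in 2 (median -0.62, or -0.46 with background set). Cd40 had 9.13 and 8.33 in macrophages, against 11.11 and 11.67 in CD8- cDC (-2.66, adjusted p = 0.014). The actin bundler Fscn1 (-2.78), the ligand Icosl (-2.55) and Cd200 (-1.36) fell, and the PD-1 ligand Pdcd1lg2 was at least 4.2-fold lower. Cd86 went the other way, with 13.36 and 13.68 in macrophages against 11.16 and 11.35 in CD8- cDC (2.27, adjusted p = 0.00321), and so did the checkpoint ligand Vsir (1.67). The related ligand Cd80 was not called (-0.32, adjusted p = 0.597), nor was Cd274 (-0.61, adjusted p = 0.192). With 1 array left out 7, 5, 5 and 2 members were lower. In those fits 3, 5, 6 and 11 of 13 called genes named above lost the call.

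Of 18 genes of MHC class II presentation 7 were lower in macrophages and 0 higher (median -0.50), while 5 were within 2-fold. With only the 4 arrays compared in the fit, 3 were lower. Among the presenting chains H2-Aa, H2-Ab1 and H2-Eb1 were within 2-fold: H2-Aa had 13.71 and 13.61 in macrophages and 13.83 and 13.62 in CD8- cDC (-0.06), H2-Ab1 differed by 0.05 and H2-Eb1 by -0.32. The invariant chain Cd74 (0.07) and the ubiquitin ligase Marchf1 (0.22), which removes class II from the surface, were within 2-fold as well. The top of the scale bounds this reading, since H2-Aa, H2-Ab1, H2-Eb1 and Cd74 were at 13.61 or above on every array. H2-Oa and H2-Ob form a modulator of peptide loading. H2-Oa had 10.43 and 8.83 in macrophages, against 12.93 and 13.20 in CD8- cDC (-3.44, adjusted p = 0.0239), and its partner H2-Ob differed by -3.33 (adjusted p = 0.0177). The second beta chain H2-Eb2 fell by 3.49 and Ciita, the transactivator of the class II genes, had 10.05 and 9.56 in macrophages against 12.10 and 12.36 in CD8- cDC (-2.42, adjusted p = 0.00509). The peptide exchange factor had smaller falls, with H2-DMb1 (-0.78) and H2-DMb2 (-1.16) lower and H2-DMa not called (-0.68, adjusted p = 0.0685). The lower members numbered 5, 4, 3 and 1 with 1 array left out. Of 6 called genes named here, 2, 2, 3 and 5 lost the call with 1 array left out.

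**Figure D4:**
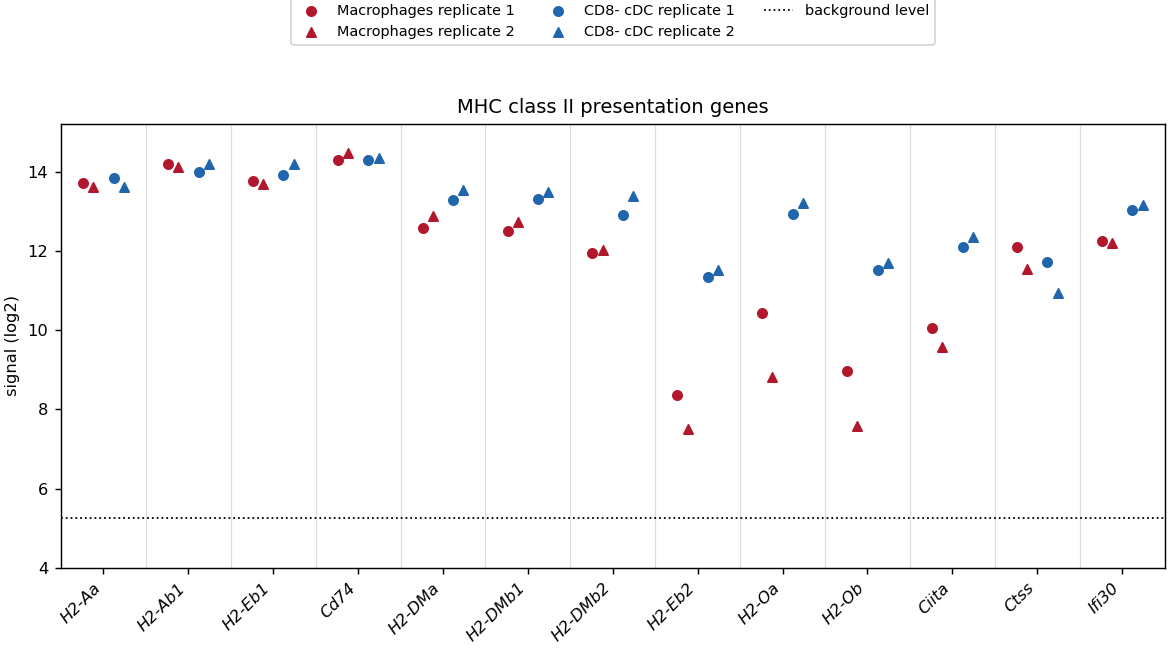
Log2 signals of 13 class II presentation genes on the 2 macrophage arrays (red, left) and the 2 CD8- cDC arrays (blue, right). H2-Aa, H2-Ab1, H2-Eb1 and Cd74 lie together at 13.61 or above in all 4 arrays, while H2-Oa falls to 10.43 and 8.83 in macrophages against 12.93 and 13.20 in CD8- cDC.

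Class II promoters are known for an X box, bound by the RFX complex, and a Y box, bound by NF-Y, at a fixed spacing, with Ciita as the coactivator that binds no DNA itself. The letters GCAAC (from the X box) followed after 20 to 30 bases by GATTGG (the Y box) were found on either strand of the same windows for 5 of 13 class II list members with a promoter in the table (38.5%) and for 47 of 15237 measured genes (0.308%). The 5 promoters are shown, since they belong to 3 genes that fell and 2 that were within 2-fold. The letters searched are in capitals.
H2-Oa, chr17:34092293-34092350, plus strand: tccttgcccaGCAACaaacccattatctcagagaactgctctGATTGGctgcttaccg
H2-Ob, chr17:34238808-34238862, plus strand: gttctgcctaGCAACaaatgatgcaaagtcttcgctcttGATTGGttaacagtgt
H2-Eb2, chr17:34325533-34325589, plus strand: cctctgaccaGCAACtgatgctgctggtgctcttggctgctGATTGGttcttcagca
H2-Eb1, chr17:34305766-34305822, plus strand: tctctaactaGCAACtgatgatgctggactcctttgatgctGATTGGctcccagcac
H2-Aa, chr17:34287857-34287914, minus strand: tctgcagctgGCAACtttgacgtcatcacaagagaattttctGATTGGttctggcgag
The spacer held 27 bases in H2-Oa, 24 in H2-Ob, 26 in H2-Eb2, 26 in H2-Eb1 and 27 in H2-Aa. These promoters were picked for the match. Of the other list members, the lower genes H2-DMb1, H2-DMb2 and Ifi30 and the level gene Marchf1 had no such match. Nor had H2-DMa, Ctss, Rfx5 and Rfxank. GATTGG alone, on either strand, occurred for 11 of 13 list members (84.6%) and 20.7% of measured genes. H2-DMb1, H2-DMb2, H2-DMa and Marchf1 were among the 11. A match is a description and not a site.

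Class I presentation had 14 of 20 members within 2-fold, 3 lower and 1 higher (median -0.22), with 19 above background on all 4 arrays. Of all genes above background on all 4 arrays 49.0% were within 2-fold. Over all genes 5.93% were lower and 7.14% higher. H2-D1 (-0.01), H2-K1 (-0.37), B2m (0.09) and the peptide pumps Tap1 (-0.12) and Tap2 (-0.01) were within 2-fold. The loading chaperone Tapbp (-1.53), the proteasome activator chain Psme2 (-1.52) and the immunoproteasome subunit Psmb8 (-1.07) were lower, and the disulfide isomerase Pdia3 0.63 higher. Without an array 3, 2, 0 and 0 members were lower. The call was lost for 0, 2, 6 and 7 of the 8 called genes just named with 1 array left out.

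Of 62 myeloid genes known in both populations, 54 were above background on all 4 arrays, 16 were higher in macrophages, 6 lower and 13 within 2-fold (median 0.30). Of all genes 19.5% were within 2-fold, and of all genes above background on all 4 arrays 49.0%. The 13 were near the first share of the 62 members and below the second share of the 54. The members within 2-fold included signalling and surface molecules of myeloid cells at large. Clec7a (Dectin-1), the beta-glucan receptor, had 10.96 and 10.40 in macrophages and 10.43 and 10.78 in CD8- cDC (0.07). The integrin chain Itgb2 differed by 0.09, the lysosomal membrane protein Laptm5 by 0.10, the interferon gamma receptor Ifngr1 by 0.21, the phosphatase Ptpn6 by 0.22 and the adaptor Tyrobp by 0.25. The lysozyme Lyz1 (0.26), the interleukin-10 receptor Il10ra (-0.27), the RNA sensor Tlr13 (0.27) and Trem3 (0.28) completed the 10 most level. Their 95% intervals lay inside -1 to 1, and the widest among them was -0.37 to 0.93 for Trem3.

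Other shared genes were unequal. The paired receptors Pilra (63.8-fold) and Pilrb1 (4.74), the hyaluronan receptor Cd44 (2.12), the granulocyte factor receptor Csf3r (2.59), the inhibitory receptor Lilrb4a (2.50), Aif1 (2.48) and the TGF beta receptor chains Tgfbr2 (2.03) and Tgfbr1 (1.45) were higher in macrophages. The oxidase subunits Ncf4 (-1.94) and Ncf1 (-1.28) fell, whereas their membrane partner Cyba was within 2-fold (0.29). Coro1a, which binds actin, fell by 2.13. Adgre1, the marker of mature macrophages, had 13.78 and 13.58 in macrophages and 11.89 and 11.87 in CD8- cDC and was not called (1.80, adjusted p = 0.104), though the arrays did not overlap. The fractalkine receptor Cx3cr1 was not called either (0.60, adjusted p = 0.481). Higher members numbered 11, 7, 8 and 8 and lower members 5, 3, 3 and 3 with 1 array left out. A variance trend gave 11 lower members. In those fits 3, 4, 5 and 5 of 11 called genes named above lost the call.

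Several receptor families held members that moved in opposite directions. In the Clec4 lectin group Clec4a4 and Clec4g (-2.08) were lower and Clec4d at least 4.54-fold higher. Clec4n (Dectin-2) had 13.71 and 14.02 in macrophages, against 9.59 and 7.92 in CD8- cDC, but was not called (5.11, adjusted p = 0.0644). The close relatives of Clec4a4 were not called: Clec4a3 differed by 2.35 (adjusted p = 0.051), Clec4a1 by 1.19 (adjusted p = 0.465) and Clec4b1 by 1.28 (adjusted p = 0.26). Clec4a2, another close relative, was at background on all 4 arrays. Of other genes with a Clec4 name, Clec4f was at background on all 4 arrays and Clec4e (0.10, adjusted p = 0.908) was not called. Close relatives of Clec4a4 are alike in sequence, and cross-hybridisation between their probes was not tested. Over all 31 C-type lectins 2 were higher and 7 lower (median 0.03, or 0.00 with background set), with Clec1b at least 9.25-fold higher and Klrd1 lower (-3.93). In the fits with an array left out 4, 3, 1 and 0 lectins were lower.

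Sialic acid receptors were on the macrophage side in Siglec1, Siglece (at least 3.41-fold), Cd33 (0.93) and Mag (at least 14.1-fold), and on the other side in Cd22 (-2.05). Siglecg, at 8.50 and 6.44 in macrophages and 10.60 and 10.95 in CD8- cDC, just missed the call (-3.30, adjusted p = 0.0518), and Siglech was not called (-0.90, adjusted p = 0.735). In the Cd300 family Cd300e was 3.55 higher and Cd300lg at least 1.05-fold lower, and Cd300a (0.45), Cd300c2 (0.62), Cd300lb (0.44), Cd300ld (1.79), Cd300ld3 (0.71) and Cd300lf (-0.94) were not called. Of the Ms4a family Ms4a8a had 9.10 and 10.17 in macrophages, against 4.56 and 4.45 in CD8- cDC (at least 20.8-fold, adjusted p = 0.00397). Ms4a6d (3.58, adjusted p = 0.0545) and Ms4a7 (2.77, adjusted p = 0.091) were not called, nor were Ms4a6c (-1.34, adjusted p = 0.137) and Ms4a6b (-1.20, adjusted p = 0.178). Ms4a4b, Ms4a4c and Ms4a4d were at background on all 4 arrays, so the call of Ms4a4c as lower (adjusted p = 0.0347) carries no fold. Of 28 integrins and adhesion genes 6 were higher and 4 lower, with Itga9 (5.47), Itgad, Itgb5 and Pecam1 (2.03) higher and Itgb7 (-2.78), Itgax and Alcam (at least 7.06-fold) lower. Those counts were 3, 1, 2 and 1 higher and 4, 3, 1 and 1 lower with 1 array left out, and 8 were lower with a variance trend. Of 21 called genes named here, 5, 8, 14 and 15 lost the call with 1 array left out.

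Of 27 oxidative phosphorylation genes 20 were within 2-fold, 1 was higher and 0 lower (median 0.01). The higher gene was the succinate dehydrogenase subunit Sdhc, at 10.77 and 11.13 in macrophages against 9.13 and 9.24 in CD8- cDC (1.77, adjusted p = 0.018), and its partner Sdhb was not called (0.39, adjusted p = 0.153). In glycolysis 7 of 20 genes were within 2-fold, 5 lower and 1 higher (median -0.36, or -0.34 with background set). Gapdh (-0.02), Ldha (-0.12), Pgk1 (0.21), Pkm (-0.20), Tpi1 (0.18) and Pgam1 (0.10) were within 2-fold. Among the called genes Eno3, the muscle enolase, had 7.64 and 8.08 in macrophages, against 11.15 and 11.43 in CD8- cDC (-3.43, adjusted p = 0.00318). The neuronal enolase Eno2 was at least 6.10-fold lower, and the glucose carriers Slc2a3 (-3.56) and Slc2a6 (-3.25) fell. The hexokinase Hk3 was 4.64 higher in macrophages, with 10.98 and 11.83 against 7.12 and 6.40 in CD8- cDC. Without an array 6, 3, 3 and 2 glycolysis genes were lower. The call was lost for 0, 2, 2 and 3 of the 6 called genes just named with 1 array left out.

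Cell division genes were lower in 9 of 29 members and higher in none (median -1.41), among them the thymidylate synthase Tyms (8.01-fold), the kinesin Kif11 (-2.08), the checkpoint kinase Bub1b (-1.88), the mitotic kinase Aurkb (-1.80) and the helicase subunit Mcm5 (-1.83). The call depended on the estimate of the spread: with only the 4 arrays compared 1 member was lower, and with a variance trend 20 were. Both macrophages and CD8- cDC held more of this list on replicate 1, for 26 and 21 of 29 members. The count was 15 without macrophage replicate 1, 6 without macrophage replicate 2, 0 with CD8- cDC replicate 1 left out and 2 with CD8- cDC replicate 2 left out. Immediate early and stress genes had 3 of 30 lower and 0 higher (Dusp5 -2.47, Gadd45b -1.97 and Ier5 at least 1.11-fold), and their median of -0.28 was -0.81 without macrophage replicate 1 and 0.04 without macrophage replicate 2. Interferon-stimulated genes were called for 3 of 26 in each direction, near the shares of all genes (7.14% higher and 5.93% lower), with Gbp3 (3.02), Cmpk2 (1.45) and Irf7 (1.18) higher and Oasl2 (-1.79), Usp18 (-1.70) and Oasl1 (at least 1.74-fold) lower of 26. Without an array 3, 1, 2 and 2 of these were higher and 2, 2, 1 and 0 lower, and 7 were higher with a variance trend.

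Cytoskeletal genes of dendrites and migration were lower in 11 of 30 members and higher in 2 (median -0.61). The calponin Cnn2 (-1.77), the unconventional myosins Myo5a (-2.40), Myo1g (-1.59) and Myo1f (-1.53) and the intermediate filament Vim (-1.33) fell. Actb (0.02), the Arp2/3 subunit Arpc2 (-0.02), Was (-0.01) and its partner Wipf1 (0.01) were within 2-fold, as were 11 members in all. Leaving out an array gave 6, 6, 4 and 2 lower members, and the 4 arrays alone 7. Endosomal Rab genes were higher in 4 of 26, Rab34 (at least 7.43-fold), Rab31 (2.05), Rab38 (1.40) and Rab32 (0.89), and lower in 1, Rab27a (-1.42). Higher Rab genes numbered 4, 3, 2 and 1 with 1 array left out. In those fits 5, 9, 15 and 18 of 24 called genes named above lost the call.

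**Figure D5:**
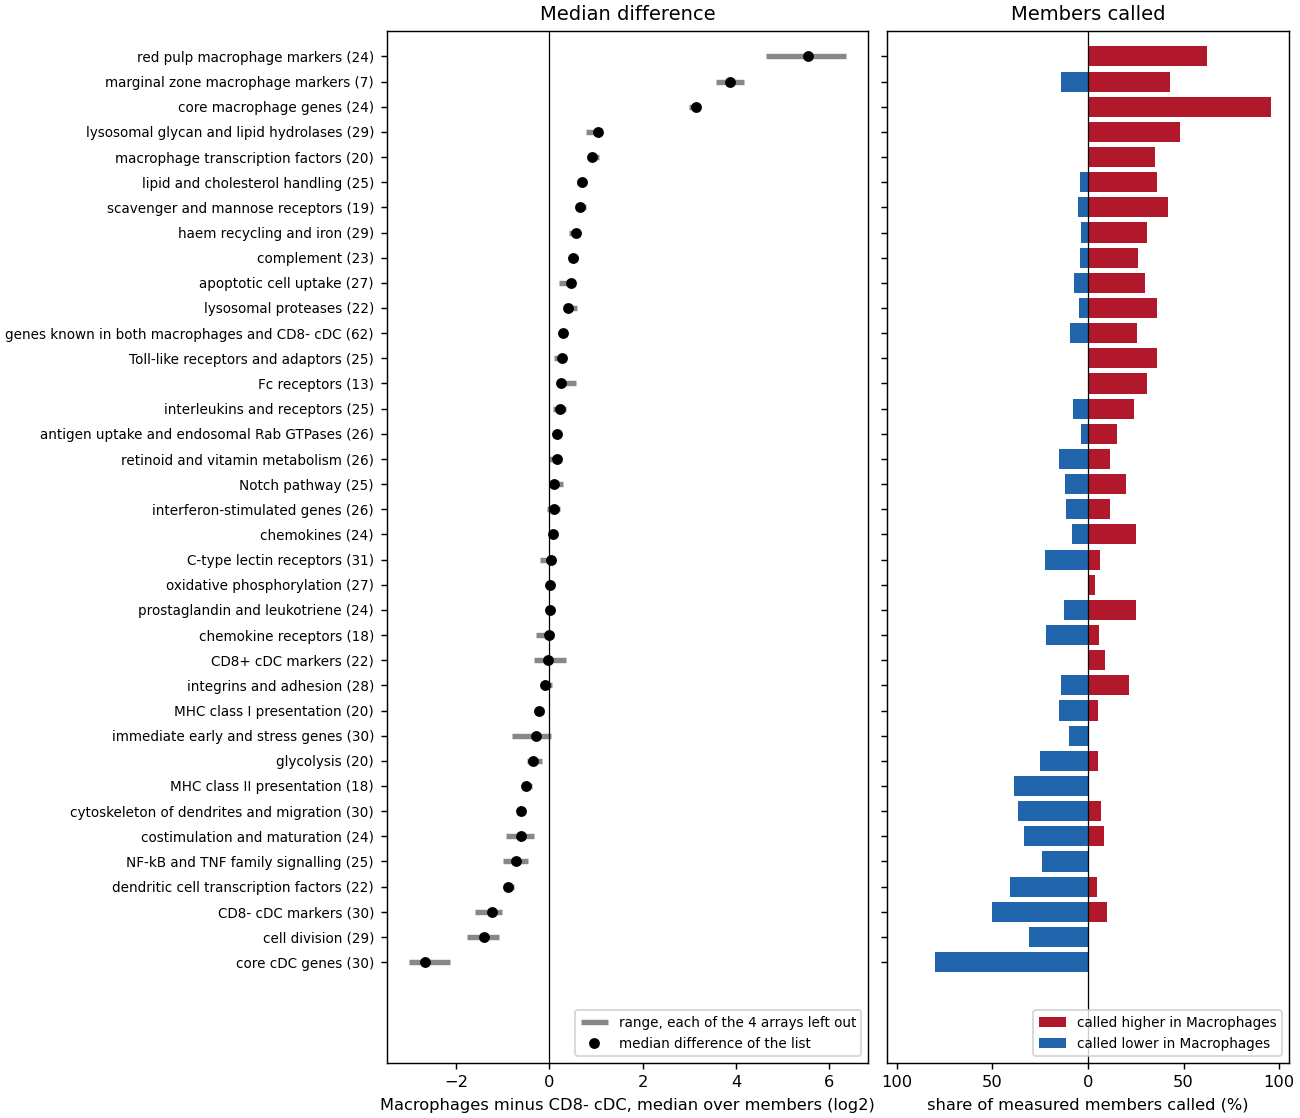
Left, the median log2 difference, macrophages minus CD8- cDC, of each gene list (number measured in parentheses), with a grey bar for its range when each of the 4 arrays is left out. Right, the share of members called higher (red) and lower (blue) in macrophages; core macrophage genes reach 23 of 24 higher and core cDC genes 24 of 30 lower, against 7.14% and 5.93% of all genes. The lists were chosen with earlier results of these data known, so these shares are a description and not a test.

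Of 126 measured marker genes of other cell types 21 were called (16.7%, against 13.1% of all genes), 13 higher and 8 lower in macrophages. Erythroid markers had a median of 1.64 (1.33 with background set) with 1 of 12 higher, Epor, and 1 lower, Tfrc. With a variance trend, or with dim probes left out, 5 were higher. Their list medians were 8.36 and 7.04 in macrophages and 6.18 and 4.97 in CD8- cDC, with replicate 1 higher in each group. The globin gene Hba-a1 was between 12.96 and 14.16 on all 4 arrays (0.72, adjusted p = 0.396), and Slc4a1, the red cell anion exchanger, had 12.16 and 9.88 in macrophages and 8.88 and 5.95 in CD8- cDC (3.60, adjusted p = 0.213). None of 11 T cell markers and none of 10 monocyte markers was called, at medians of 0.03 and 0.05. The T cell median was -0.39 without macrophage replicate 1 and 1.04 without macrophage replicate 2. Of 13 neutrophil markers Csf3r was higher and the gelatinase Mmp9 lower (-2.39), and S100a8 had 10.27 and 6.88 in macrophages and 7.77 and 5.08 in CD8- cDC (2.15, adjusted p = 0.578). Among B cell markers Fcer2a was higher and Cd22 lower of 9, with Pax5 at background on all 4 arrays. The NK cell list of 10 had 1 lower gene, the pore-forming Prf1 (-1.73), with Ncr1 and Gzmb at background. Of 17 endothelial and stromal markers 4 were higher, Stab2, Pecam1, Cxcl12 and the von Willebrand factor Vwf (2.80), and 10 were at background on all 4 arrays, among them Kdr, Emcn and Col1a1. Platelet markers were higher for 2 of 10, Clec1b and Pf4 (at least 2.36-fold), with Gp9, Gp5 and Ppbp between 4.44 and 5.26. Of 11 plasmacytoid dendritic cell markers Irf7 was higher and Spib (-1.55) lower, of 11 plasma cell markers Xbp1 (0.80) was higher and Irf4 lower, and the tetraspanin Cd9 (-1.28) was the lower platelet marker. Of 12 markers of eosinophils, basophils and mast cells Ccr3 and Prg3 were higher and Kit lower, and 8 were at background on all 4 arrays. The part of other cells in the results above was not tested. Of 21 called genes named here, 1, 10, 12 and 14 lost the call with 1 array left out.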

How the data were processed

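RNA of 6 samples was read on 6 arrays, 2 each of macrophages, CD8- cDC and CD8+ cDC. The deposited values are log2 signals per probe, made by the authors with BeadStudio and limma per the submitters' processing notes, which give no versions. The sorted columns differ by at most 0.0349 log2, as quantile-normalised columns do. A scanner table with 12 columns was not used, because its column names match no sample label.

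Of 45281 probes, 34885 had 1 gene symbol, 18 several and 10378 none. The probe with the highest mean over the 6 arrays stood for each of 19057 genes. limma 3.58.1 in R 4.3.3 (lmFit, eBayes) was fitted to all probes with 1 coefficient per group, and p-values were adjusted over all probes. The procedure was tested on simulated data. The number of arrays limits the precision.

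The members and the 48 gene lists (1055 of 1121 entries measured) were chosen with earlier results of these data known. Named genes are the markers, the 14 highest and 14 lowest called genes, up to 5 called members per list with the largest differences, the 10 most level shared genes and 4 receptor families. Other genes were named after their values were seen. Alternatives changed the arrays fitted, replicate block, variance trend, scaling, filter on dim probes, probe choice and background level. Promoters are RefSeq's.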

Additional observations from a re-analysis of the deposited data

How the results depend on the processing

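As reported, limma called 1361 genes higher and 1131 lower in macrophages. With only the 4 arrays compared, 1087 were higher and 746 lower, and the same numbers were found when either of the CD8+ cDC arrays was left out, since a lone array adds nothing to the spread. Leaving out each array in turn gave 484 to 1197 higher genes and 237 to 940 lower genes, lowest without CD8- cDC replicate 2, as fewer samples allow. Scaling, variance trend, filter and probe choice gave 1363 to 1581 higher and 1020 to 1389 lower genes. Genes within 2-fold numbered 2841 to 4760 over all fits, and 4073 with the 95th percentile as background. The sign of Numb turned, to -0.14, with the mean of all probes of a gene. Replicate numbers were shared by the groups, but nothing in the labels says that they pair samples. Same-numbered macrophage and CD8- cDC arrays deviated together with a correlation of 0.219, and a replicate block gave 1536 higher and 1215 lower genes. Under this block 6 erythroid markers were higher (1 as reported), 17 cell division genes lower (9 as reported) and 6 interferon-stimulated genes higher (3 as reported). With 2 arrays per group, genes near background have only a minimum fold, and genes near the top of the scale may differ by more than shown.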

Other observations

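The genes in these paragraphs were chosen after their values were seen and are described only. P2ry10, Ffar4, Klri1 and Klrd1 were also members of gene lists above, and Klri1, Ryr3 and Sucnr1 were among the 14 lowest genes. Receptors with P2ry and P2rx names, many of which sense extracellular nucleotides, were called in both directions. P2ry12 (at least 29.4-fold), P2ry13 (5.28), P2ry14 (2.12) and the ion channel P2rx4 (2.36) were higher in macrophages, and P2ry6 (-2.64), P2ry10 (at least 1.94-fold) and the channel P2rx5 (-2.19) lower. Receptors for metabolites also differed. Hcar2 (5.61), which binds ketone bodies and niacin, was higher in macrophages, and the fatty acid receptors Ffar2 (-3.56) and Ffar4 (-3.38) were lower, beside the succinate receptor Sucnr1 (-4.20). The growth factor Igf1 (6.01) was on the macrophage side.

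Receptors best known from natural killer cells were lower in macrophages for Klri1 (-4.39), Klri2 (at least 12.3-fold), Klrd1 (-3.93) and Klrb1f (at least 6.35-fold), and Klra2 (at least 11.4-fold) was higher. Excitable-cell genes on the CD8- cDC side included the calcium release channels Ryr1 (-3.91) and Ryr3 (at least 19.3-fold) and the sodium channel subunit Scn2b (-3.57). Relatives of Bex6 were lower as well, with Bex2 (at least 3.42-fold) and Bex3 (-1.49). Whether probes within these families cross-hybridise was not tested.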
